A study of Homo sapiens with 18 samples.

Results

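Integrins and laminins were described as 1 gene module of glioblastoma cells. Members were the genes whose symbol names an integrin subunit (ITGA or ITGB followed by digits or by D, E, L, M, V or X) or a laminin chain (LAMA, LAMB or LAMC followed by a digit), on a probe set that is paired with a single symbol. This gave 36 of the 15529 genes measured: 25 integrin subunits (17 alpha and 8 beta) and 11 laminin chains (5 alpha, 4 beta and 2 gamma). ITGA2B, the platelet alpha subunit, falls outside the symbol rule; its log2 level lay between 5.25 and 6.17 on all 18 arrays, and it passed neither averaged test (limma adjusted p = 0.47 with IL4I1 and 0.86 with the AHR hairpins).

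The study measured total RNA of U-87MG, an established human glioblastoma line, on Affymetrix 1-colour arrays. Cells were stable lines made with lentiviral vectors and carried either the control vector pLX301 or the same vector with the human cDNA of IL4I1, an amino acid oxidase released by cells, whose products can activate the aryl hydrocarbon receptor. On top of either vector they carried a non-targeting hairpin (shCtrl) or a hairpin against AHR, the gene of that receptor, in 2 versions (shAHR1 and shAHR2). This makes 6 groups of 3 arrays, all from cells kept in culture for 120 h; puromycin selection was part of the vector step in every line, so no group holds cells without lentivirus. Arrays 1 to 3 of each group are biological replicates from independent experiments by the labels, which give no count of separate infections, so p-values measure the spread between these samples.

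Integrins are heterodimers of an alpha and a beta subunit that span the cell membrane, bind matrix proteins outside the cell and link them through adaptors such as talin to the actin cytoskeleton. Laminins are cross-shaped trimers of an alpha, a beta and a gamma chain and form the sheet of basement membranes; several integrins, above all those with the alpha3, alpha6 or alpha7 subunit, are laminin receptors. In glioblastoma, integrins that contain alphaV, and vascular laminins, have long been studied in invasion and vessel growth.

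Values were the authors' log2 expression per probe set, and a level of 1 probe set cannot be set against that of another. Array medians lay between 6.46 and 6.53, correlations between arrays over all genes were 0.864 to 0.956, and no 2 arrays were identical. The labels were borne out by their target genes: AHR lay at 9.84 to 10.33 on the 6 shCtrl arrays and at 7.45 to 8.16 on the 12 arrays with an AHR hairpin, and IL4I1 lay at 5.27 to 6.43 without and at 12.67 to 13.01 with its vector. Array 2 of the control-vector shCtrl group had the widest spread around the gene medians (interquartile range 0.52 against 0.316 to 0.466 on the others). VIM and CD44, which glioblastoma lines express, reached 12.43 and 11.41 and were at least 10.65 on every array, while GFAP, the astrocyte filament protein, lay at 5.63 to 6.88, NES, the nestin of neural progenitors, at 5.67 to 6.51 and OLIG2, a glial lineage factor, at 4.77 to 6.65. Of the 8 glioblastoma and glial markers measured, 1 rose and 1 fell with IL4I1 on average (25%, beside 12.6% of all genes). With the AHR hairpins 2 rose on average (25%, beside 5.36%). Of 5 epithelial, 4 endothelial and 3 skeletal muscle markers measured, 0 were called in either averaged comparison described here. Of the 36 members, 17 had a mean above the median gene mean of 6.57 and 9 lay under the lower quartile of 5.8. The lowest group means were those of ITGA8 (4.04 in IL4I1 cells with shAHR1) and ITGB8 (4.41 in IL4I1 cells with shCtrl), both in the lowest 1% of all group means.

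The first question was how the module differed with IL4I1. With IL4I1, the collagen receptor subunit ITGA2, the laminin receptor subunits ITGA3 and ITGA7, the alphaV partner ITGB8 and the laminin chains LAMA5 and LAMB1 fell, while ITGAX, ITGB3 and LAMA3 rose, each as the average over the 3 hairpin backgrounds with 9 arrays against 9. These are 9 of 36 members (3 up and 6 down) at a limma adjusted p under 0.05, or 25%, beside 12.6% of all genes (5.36% higher and 7.21% lower). The largest change in the module was that of ITGA2 (a 2.62-fold fall) and the smallest called was that of LAMB1 (a 1.19-fold fall). The median change of the 36 members was −0.03 on the log2 scale beside 0.01 over all genes, and the called members went in both directions. Within single backgrounds, 6 members passed in shCtrl cells (16.7% beside 4.58% of all genes), 2 in shAHR1 cells (5.56% beside 1.31%) and 2 in shAHR2 cells (beside 0.612%). Arrays with and without IL4I1 did not overlap for 18 members in shCtrl cells (beside 20.3% of all genes), for 8 in shAHR1 cells (22.2% beside 18.1%) and for 11 in shAHR2 cells (30.6% beside 18.8%).

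**Figure D1:**
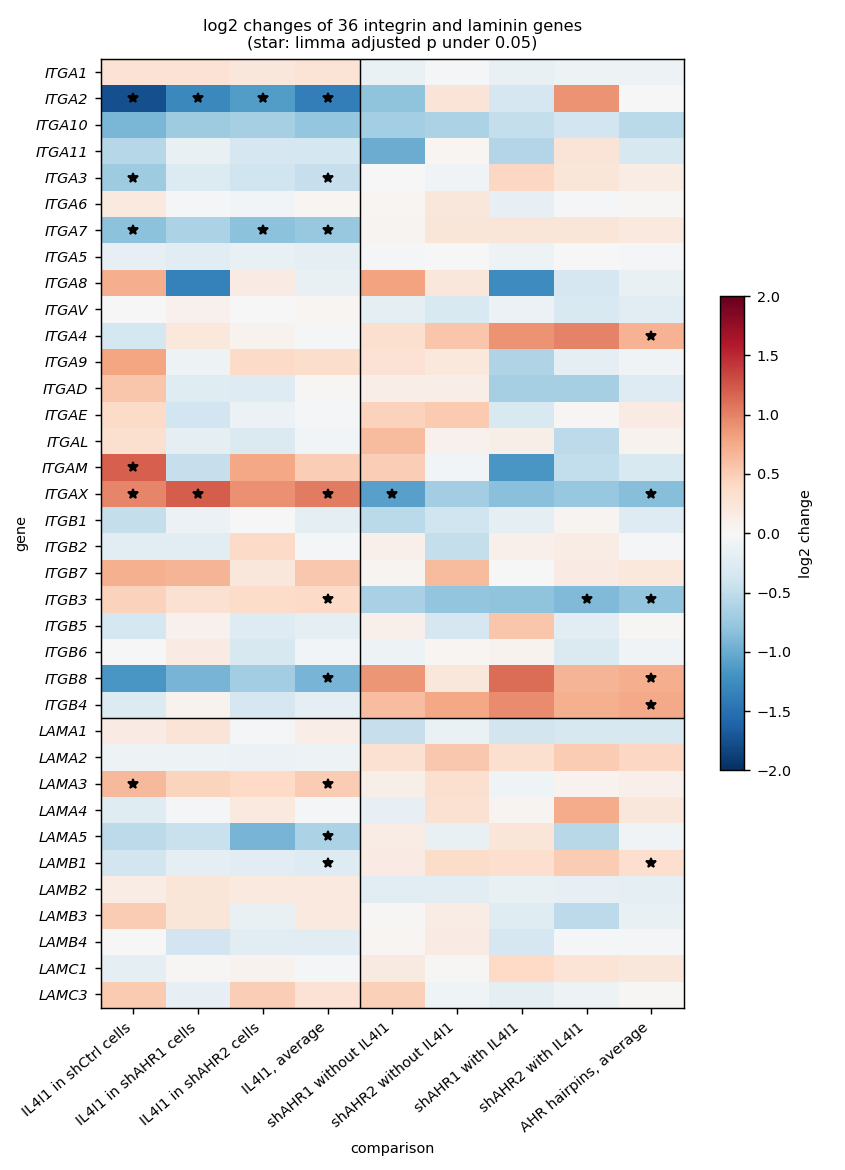
Log2 change of each of the 36 members (y axis) in 9 comparisons (x axis); red is higher and blue lower in the first-named cells, and a star marks a limma adjusted p under 0.05. The columns on the left compare IL4I1 with the control vector and those on the right an AHR hairpin with shCtrl; ITGA2 carries a star in all 4 IL4I1 columns and in none of the 5 hairpin columns.

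ITGA2 encodes alpha2, which pairs with beta1 as a receptor for collagen and, in some cells, laminin. Without IL4I1 its log2 levels were 8.63, 8.59 and 8.62 in shCtrl cells, 7.69, 7.68 and 8.06 in shAHR1 cells and 8.74, 8.86 and 9.03 in shAHR2 cells. With IL4I1 they were 7.16, 6.32 and 7.08 in shCtrl cells, 6.59, 6.09 and 6.88 in shAHR1 cells and 7.65, 7.81 and 7.82 in shAHR2 cells. Every IL4I1 array lay below every control-vector array of the same hairpin. The average fell by 1.39 ± 0.13 (SE) on the log2 scale (limma adjusted p = 8e-06). Within backgrounds ITGA2 fell by 1.76 ± 0.22 with shCtrl (limma adjusted p = 0.00047), fell by 1.29 ± 0.22 with shAHR1 (0.012) and fell by 1.12 ± 0.22 with shAHR2 (0.026). The average and the shCtrl call held when any 1 of the 18 arrays was left out. The shAHR1 call did not hold without array 3 of the control-vector shAHR1 group (−1.16, adjusted p = 0.077) or array 2 of the IL4I1 shAHR1 group (−1.07, 0.071), and the shAHR2 call was lost without control-vector array 2 or 3 or any of the 3 IL4I1 arrays of that hairpin, with adjusted p up to 0.14.

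The other collagen-binding alpha subunits did not pass with IL4I1 on average in the main fit. ITGA1, which pairs with beta1 on collagen IV, ranged from 6.83 to 7.60 over all arrays and its average change was 0.27 ± 0.09 (limma adjusted p = 0.078). ITGA10, known from cartilage, ranged from 4.19 to 6.58 with a change of −0.77 ± 0.26 (0.064). This change passed with a mean-dependent robust prior (limma adjusted p = 0.047), and not with a replicate block or median-centred arrays. ITGA11, a receptor for fibrillar collagen on fibroblasts, changed by −0.35 ± 0.17 (0.22). The collagen-binding subunits therefore gave 1 call among 4, beside 12.6% of all genes.

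The laminin-binding alpha subunits gave 2 calls among 3 on average, both lower, beside 7.21% of all genes lower. These classes are small and were chosen with earlier results of these data known. ITGA3, the alpha3 subunit that binds laminins of epithelial and vascular basement membranes, was at 11.38, 11.62 and 11.59 in control-vector shCtrl cells, at 11.49, 11.47 and 11.60 with shAHR1 and at 11.19, 11.57 and 11.63 with shAHR2. Under IL4I1 the levels were 10.76, 10.94 and 10.78 with shCtrl, at 11.29, 11.14 and 11.31 with shAHR1 and at 10.95, 11.10 and 11.13 with shAHR2. Within each hairpin the IL4I1 arrays were the lower ones without overlap, and the gap was widest in shCtrl cells. ITGA3 fell by 0.46 ± 0.08 on the log2 scale on average (limma adjusted p = 0.0012) and by 0.71 ± 0.14 in shCtrl cells (0.011); the shCtrl call was lost without control-vector array 2 (−0.66, 0.051) or IL4I1 array 1 (−0.67, 0.052).

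ITGA7 encodes alpha7, the laminin receptor best known from skeletal muscle. Its levels without IL4I1 were 7.56, 7.82 and 7.36 with shCtrl, 7.76, 7.68 and 7.46 with shAHR1 and 7.89, 7.79 and 7.78 with shAHR2. With IL4I1 they were 6.86, 6.75 and 6.67 with shCtrl, 7.30, 6.73 and 6.98 with shAHR1 and 7.12, 7.03 and 6.84 with shAHR2. All 9 IL4I1 arrays lay below all 9 control-vector arrays (6.67 to 7.30 against 7.36 to 7.89). ITGA7 fell by 0.76 ± 0.09 on average, 1.69-fold (limma adjusted p = 8.5e-05), by 0.82 ± 0.16 in shCtrl cells (0.011) and by 0.82 ± 0.16 in shAHR2 cells (0.028). Leaving out control-vector shCtrl array 2 ended the shCtrl call (−0.70, 0.060), and the shAHR2 call was lost without control-vector array 2 or 3 or any IL4I1 array of that hairpin (adjusted p up to 0.13). ITGA6, the alpha6 subunit of hemidesmosomes and of many stem cells, ranged from 6.07 to 6.69 and its average change was 0.04, with a 95% confidence interval of −0.18 to 0.26.

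Among subunits known from leukocytes, ITGAX rose with IL4I1. ITGAX encodes CD11c, the alpha subunit of complement receptor 4 on dendritic cells and macrophages. Its levels were 8.04, 8.32 and 7.33 in control-vector shCtrl cells, 6.73, 6.92 and 6.81 with shAHR1 and 7.31, 7.36 and 6.92 with shAHR2. With IL4I1 they were 8.95, 9.03 and 8.64 with shCtrl, 8.09, 7.76 and 8.25 with shAHR1 and 8.02, 8.10 and 8.20 with shAHR2. The IL4I1 arrays were the higher ones in each background without overlap. ITGAX rose by 1.03 ± 0.13 on average, 2.05-fold (limma adjusted p = 7.3e-05), by 0.97 ± 0.22 in shCtrl cells (0.019) and by 1.22 ± 0.22 in shAHR1 cells (0.014); in shAHR2 cells the change was 0.91 ± 0.22 (0.073). The shCtrl call was lost without control-vector array 3 (0.69, adjusted p = 0.078), IL4I1 array 1 (0.93, 0.076) or IL4I1 array 2 (0.90, 0.071), and the shAHR1 call without control-vector array 1 (1.17, 0.062), control-vector array 3 (1.21, 0.077) or IL4I1 array 3 (1.11, 0.058).

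ITGAM encodes CD11b, the alpha subunit of complement receptor 3 on myeloid cells and microglia. It was at 5.74, 5.43 and 6.23 in control-vector shCtrl cells and at 7.30, 6.44 and 7.24 in IL4I1 shCtrl cells, with no overlap. In shAHR1 cells it was at 6.44, 5.87 and 6.55 without and at 6.22, 5.59 and 5.66 with IL4I1, and these arrays overlapped. In shAHR2 cells it was at 5.39, 5.89 and 5.94 without and at 6.97, 6.43 and 6.12 with IL4I1, again apart. ITGAM rose by 1.20 ± 0.30 in shCtrl cells (limma adjusted p = 0.032), while the average over backgrounds was 0.50 ± 0.17 (0.069). That average passed with a replicate block (0.047) and with dim genes left out (0.049), and not with the mean-dependent robust prior or median-centred arrays. The shCtrl call was lost without control-vector array 1 (1.17, adjusted p = 0.054) or 2 (1.01, 0.14) and without IL4I1 array 1 (1.04, 0.13) or 3 (1.07, 0.097).

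ITGAL and ITGAD, the other leukocyte alpha subunits that pair with beta2, lay at 4.19 to 6.30 and 4.06 to 6.44 over all arrays, and ITGAE, the alpha subunit of T cells in epithelia, at 5.34 to 6.55; none passed a test. ITGB2, the beta2 subunit that ITGAX, ITGAM, ITGAL and ITGAD need as their partner, lay at 6.33 to 7.23 and was called in none of the 16 comparisons. ITGB7, the partner of alpha4 and alphaE, lay at 5.19 to 6.99 with an average IL4I1 change of 0.54 ± 0.17 (limma adjusted p = 0.053). This change passed with the mean-dependent robust prior (0.036), dim genes left out (0.037) and median-centred arrays (0.048), and not with the replicate block. Of 15 leukocyte marker genes that are not integrins, 9 were measured; their summed linear level was 418.2 to 622.4 on the control-vector shCtrl arrays and 523.7 to 700.7 on the IL4I1 shCtrl arrays, 541.2 to 597.6 without and 465.4 to 558.2 with IL4I1 in shAHR1 cells, and 453.7 to 575.1 without and 458.7 to 596.3 with IL4I1 in shAHR2 cells. PTPRC, the pan-leukocyte gene CD45, lay between 4.95 and 6.78 on all arrays. FCER1G, an adaptor of Fc receptors, rose with IL4I1 in shCtrl cells (1.10 ± 0.27, limma adjusted p = 0.028). On average 2 of the 9 rose and 1 fell with IL4I1 (33.3%, beside 12.6% of all genes). FCER1G and MS4A1 rose and CSF1R fell (the last 2 are named here after their values were seen). FCER1G and MS4A1 lay near the bottom of the scale, at percentiles 3.21 and 2.45 of the gene means. The part of these genes in the ITGAX and ITGAM values was not tested.

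Of the subunits that build the alphaV receptors for fibronectin, vitronectin and latent TGF-beta, ITGB3 rose and ITGB8 fell with IL4I1. ITGB3, the beta3 subunit of the vitronectin receptor, was at 10.12, 9.33 and 9.67 in control-vector shCtrl cells, at 9.23, 8.93 and 9.01 with shAHR1 and at 9.09, 8.75 and 8.90 with shAHR2. In IL4I1 cells the levels were 10.11, 10.27 and 10.14 with shCtrl, at 9.54, 9.07 and 9.50 with shAHR1 and at 9.34, 9.02 and 9.49 with shAHR2. The arrays with and without IL4I1 overlapped in all 3 backgrounds. The average rise was 0.38 ± 0.11 (limma adjusted p = 0.037), and the call held for 5 of the 18 arrays left out singly; without the others the change was 0.32 to 0.39 with adjusted p from 0.052 to 0.078. The arrays it was lost without were shCtrl 2 and 3, shAHR1 2 and 3 and shAHR2 2 and 3 of the control vector, and all 3 shCtrl arrays, shAHR1 1 and 3 and shAHR2 1 and 3 of IL4I1.

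ITGB8 encodes beta8, whose dimer with alphaV binds latent TGF-beta and is known from the brain. Without IL4I1 it was at 5.91, 5.40 and 5.42 with shCtrl, at 6.87, 6.27 and 6.24 with shAHR1 and at 6.03, 5.64 and 5.73 with shAHR2. With IL4I1 it was at 4.25, 4.34 and 4.66 with shCtrl, at 5.98, 4.97 and 5.65 with shAHR1 and at 5.94, 4.77 and 4.59 with shAHR2. The groups were apart with shCtrl and shAHR1 and overlapped with shAHR2. ITGB8 fell by 0.93 ± 0.19 on average, 1.90-fold (limma adjusted p = 0.003), and this call held without any 1 array. In shCtrl cells the change was −1.16 ± 0.32 (0.051). The mean of 4.41 in IL4I1 shCtrl cells was in the lowest 1% of all group means, near the bottom of the scale.

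The alphaV subunit itself, ITGAV, stayed within 8.97 to 9.69 on all arrays; its average IL4I1 change was 0.04, with a 95% confidence interval of −0.13 to 0.21. ITGA5, the alpha5 chain of the fibronectin receptor, ranged from 9.97 to 10.58 with a change of −0.18 (−0.36 to 0.00). ITGB1, the beta1 subunit shared by most of the collagen, laminin and fibronectin receptors, ranged from 9.64 to 10.83 with a change of −0.20 (−0.47 to 0.07). Its IL4I1 change was −0.47 in shCtrl cells (arrays apart, not called), −0.11 with shAHR1 and −0.01 with shAHR2. The hairpin changes of ITGB1 were −0.53 with shAHR1 and −0.40 with shAHR2 without IL4I1 (arrays apart, not called). With IL4I1 they were −0.18 and 0.06. The remaining alphaV partners ITGB5 (7.78 to 8.95) and ITGB6 (4.91 to 6.60), ITGA8, an RGD-binding subunit that pairs with beta1 (3.59 to 5.87), and the alpha9 subunit ITGA9 (5.12 to 6.34) were called in no comparison. The partners ITGAV and ITGB1 thus showed no call, beside the calls of ITGA2, ITGA3, ITGA7, ITGB3 and ITGB8.

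**Figure D2:**
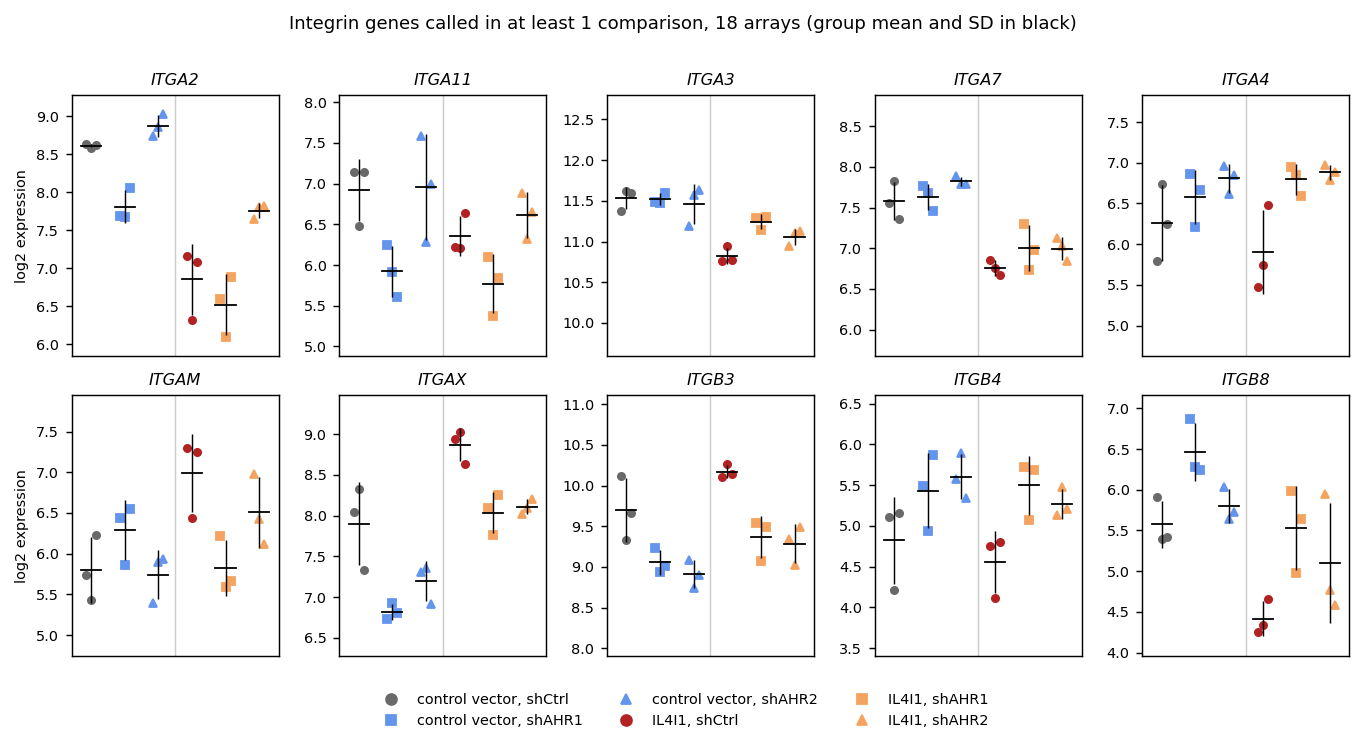
Log2 expression (y axis) of the 10 integrin genes called in at least 1 of the 16 comparisons; each point is 1 array, black bars are the mean and SD of 3 arrays, and the grey line parts control-vector groups (left) from IL4I1 groups (right). ITGA7 separates left from right in full, while ITGB3 is highest in the 2 shCtrl groups.

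Laminin chains gave 3 calls with IL4I1 on average (27.3% of 11, beside 12.6% of all genes), LAMA3 up and LAMA5 and LAMB1 down. LAMA3, the alpha chain of the epithelial laminin that anchors keratinocytes, was at 5.36, 5.22 and 4.82 in control-vector shCtrl cells, at 5.37, 5.01 and 5.38 with shAHR1 and at 5.62, 5.40 and 5.36 with shAHR2. IL4I1 cells had 5.83, 5.59 and 5.94 with shCtrl, at 5.63, 5.59 and 5.87 with shAHR1 and at 6.11, 5.75 and 5.72 with shAHR2. Each IL4I1 group lay above its own control group without overlap, at levels under the array medians. LAMA3 rose by 0.50 ± 0.10 on average, 1.42-fold (limma adjusted p = 0.0033), a call that held without any 1 array. In shCtrl cells the rise was 0.65 ± 0.18 (0.046), and this call held in 4 of 18 fits that each left out 1 array; it was lost without any array of the shCtrl groups except control-vector array 1, without control-vector shAHR1 array 1 or 3 or shAHR2 array 2 or 3, and without any IL4I1 shAHR1 array or IL4I1 shAHR2 array 2 or 3, with 0.50 to 0.75 and adjusted p up to 0.17.

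LAMA5, the alpha chain of the laminins of mature vessel walls, was at 7.69, 7.31 and 7.35 in control-vector shCtrl cells, at 8.01, 7.55 and 7.26 with shAHR1 and at 7.64, 7.16 and 7.08 with shAHR2. IL4I1 cells had 7.06, 6.95 and 6.75 with shCtrl, at 7.27, 7.00 and 7.20 with shAHR1 and at 6.64, 6.10 and 6.38 with shAHR2. Groups were apart with shCtrl and shAHR2, and with shAHR1 1 pair of arrays overlapped. LAMA5 fell by 0.63 ± 0.12 on average, 1.55-fold (limma adjusted p = 0.0021), again without any single array deciding the call; in shAHR2 cells the change was −0.92 ± 0.21 (0.060).

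LAMB1, the beta1 chain of many laminins, was at 9.02, 9.06 and 9.20 in control-vector shCtrl cells, at 9.36, 9.13 and 9.27 with shAHR1 and at 9.54, 9.34 and 9.48 with shAHR2. Levels under IL4I1 were 8.75, 8.66 and 8.77 with shCtrl, at 9.10, 8.86 and 9.23 with shAHR1 and at 9.42, 9.07 and 9.24 with shAHR2. The arrays were apart in shCtrl cells and overlapped with either AHR hairpin. LAMB1 fell by 0.26 ± 0.08 on average (limma adjusted p = 0.047), and this held with 4 of the 18 arrays left out singly. It was lost without 7 arrays of each vector: shCtrl 2 and 3, shAHR1 1 and 3 and all shAHR2 arrays of the control vector, and all shCtrl arrays, shAHR1 1 and 2 and shAHR2 2 and 3 of IL4I1, with −0.28 to −0.22 and adjusted p up to 0.098.

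The other laminin chains were called in no comparison. LAMC1, the gamma chain that most laminins share, was high and even (9.76 to 10.38 over all arrays), with an average IL4I1 change of −0.03 and an interval of −0.20 to 0.14. LAMA4, the alpha chain of vascular and mesenchymal laminins, ranged from 7.46 to 8.67, and LAMB2, the beta chain of the synaptic and glomerular laminins, from 7.63 to 8.63, with an average IL4I1 change of 0.20 (−0.11 to 0.50). LAMA1 (5.53 to 6.63) and LAMA2 (5.44 to 6.63), the alpha chains of the early embryo and of muscle, LAMB3 (6.42 to 7.30), the epithelial partner of LAMA3, LAMB4 (5.13 to 6.39) and LAMC3 (5.14 to 6.11) lay nearer to or below the array medians.

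**Figure D3:**
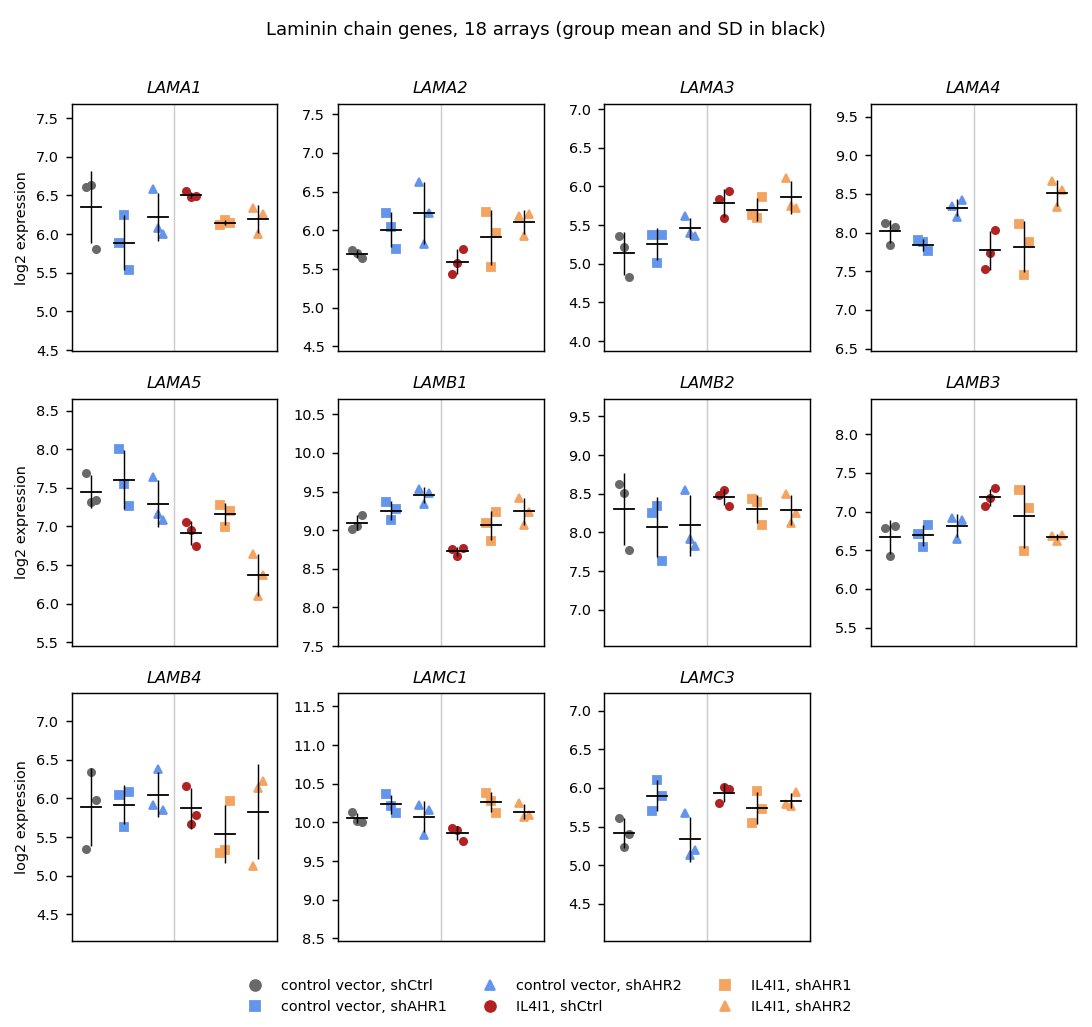
Log2 expression (y axis) of the 11 laminin chain genes measured; each point is 1 array, black bars are the mean and SD of 3 arrays, and the grey line parts control-vector groups (left) from IL4I1 groups (right). LAMA3 is higher and LAMA5 lower on the right, while LAMC1 stays within 9.76 to 10.38.

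Cell cycle genes moved with IL4I1 as well. All 10 measured genes of a cell cycle list fell on average (median log2 change −2.14, beside 12.6% of all genes called). Of the 10, 8 fell in shCtrl cells (beside 4.58%), 4 in shAHR1 cells (beside 1.31%) and 0 in shAHR2 cells (beside 0.612%), where their median change was −1.74 by limma. Their summed linear level was 1515 to 4748 on control-vector arrays and 424.9 to 1195 on IL4I1 arrays. The part of this in the integrin and laminin values was not tested. The AHR hairpins called 0 of these 10 genes on average, beside 5.36% of all genes, with a median log2 change of 0.27. With shAHR2 all 10 were higher in either vector, none of them called, with medians of 0.27 without and 0.73 with IL4I1. With shAHR1, 3 of the 10 were higher without and 4 with IL4I1, with medians of −0.06 and −0.05.

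The second question was how it differed with the AHR hairpins. On average over both hairpins and both vectors, 12 arrays against 6, ITGB3 and ITGAX fell and ITGA4, ITGB4, ITGB8 and LAMB1 rose, which is 6 of 36 members (16.7%) at a limma adjusted p under 0.05 beside 5.36% of all genes (3.43% higher and 1.93% lower). The median change was −0.03 over the members and 0.02 over all genes. In single comparisons, shAHR1 without IL4I1 called 1 member (ITGAX, beside 0.406% of all genes), shAHR2 with IL4I1 called 1 (ITGB3, beside 1.26%), and the other pair called 0, beside 0.734% for shAHR2 without and 1.55% for shAHR1 with IL4I1. At an unadjusted p under 0.05 limma had 9 members for shAHR2 without IL4I1 (25%, beside 11.1% of all genes). For shAHR1 with IL4I1 it had 12 (33.3%, beside 12.5%). With a mean-dependent, outlier-robust prior these comparisons called 1 and 3 members, and the share of all genes under that prior is not given here. Groups were apart for 10, 11, 13 and 14 members with shAHR1 without, shAHR2 without, shAHR1 with and shAHR2 with IL4I1 (27.8%, 30.6%, 36.1% and 38.9%, beside 14.1%, 14.2%, 18.1% and 18.8% of all genes).

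ITGB3 was lower with either AHR hairpin and either vector. The 6 shCtrl arrays ran from 9.33 over a median of 10.11 to 10.27 and the 12 hairpin arrays from 8.75 over 9.08 to 9.54. The hairpin arrays lay below the shCtrl arrays in all 4 single comparisons without overlap, although the pooled ranges overlapped at the control-vector shCtrl array with 9.33. ITGB3 fell by 0.78 ± 0.12 on average, 1.72-fold (limma adjusted p = 0.001), and no single array decided this call. The changes were −0.65, −0.79, −0.81 and −0.89 for shAHR1 and shAHR2 without and shAHR1 and shAHR2 with IL4I1 (adjusted p = 0.19, 0.077, 0.056 and 0.039); the last was lost without array 1, 2 or 3 of either group compared, or without array 3 of either shAHR1 group, with adjusted p up to 0.17.

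ITGAX had shCtrl arrays from 7.33 over a median of 8.48 to 9.03 and hairpin arrays from 6.73 over 7.56 to 8.25. The groups were apart in 3 of the 4 single comparisons. The average fell by 0.85 ± 0.13, 1.80-fold (limma adjusted p = 0.0012), with or without any 1 array. The fall with shAHR1 in control-vector cells was 1.08 ± 0.22 (0.039). This single call held in 6 of 18 fits with 1 array left out; it was lost without control-vector shCtrl array 1 or 2, any control-vector shAHR1 array, control-vector shAHR2 array 1 or 2, IL4I1 shCtrl array 1, IL4I1 shAHR1 array 1 or any IL4I1 shAHR2 array, with adjusted p up to 0.17. The changes with shAHR2 without, shAHR1 with and shAHR2 with IL4I1 were −0.70, −0.84 and −0.76.

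ITGA4 encodes alpha4, the receptor subunit for VCAM-1 and fibronectin on lymphocytes and neural crest cells. It was at 5.80, 6.73 and 6.25 with shCtrl, at 6.87, 6.22 and 6.66 with shAHR1 and at 6.96, 6.61 and 6.86 with shAHR2 in control-vector cells. In IL4I1 cells it was at 5.48, 5.74 and 6.48 with shCtrl, at 6.95, 6.85 and 6.59 with shAHR1 and at 6.97, 6.79 and 6.89 with shAHR2. The hairpin arrays were the higher ones without overlap in IL4I1 cells only, and overlapped with shCtrl in control-vector cells. ITGA4 rose by 0.69 ± 0.16 on average (limma adjusted p = 0.017), and the call was lost without control-vector shCtrl array 1 (0.57, 0.054), IL4I1 shCtrl array 1 (0.58, 0.062) or IL4I1 shCtrl array 2 (0.65, 0.054).

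ITGB4 encodes beta4, the partner of alpha6 in hemidesmosomes. It was at 5.11, 4.21 and 5.15 with shCtrl, at 5.49, 4.94 and 5.87 with shAHR1 and at 5.57, 5.89 and 5.34 with shAHR2 in control-vector cells. In IL4I1 cells it was at 4.75, 4.11 and 4.80 with shCtrl, at 5.73, 5.08 and 5.69 with shAHR1 and at 5.13, 5.48 and 5.21 with shAHR2. Only the shAHR1 comparison without IL4I1 overlapped among the 4, and all levels were below the array medians. ITGB4 rose by 0.76 ± 0.18 on average, 1.70-fold (limma adjusted p = 0.018); without control-vector shCtrl array 2 it was 0.61 (0.059) and without IL4I1 shCtrl array 2 it was 0.65 (0.067).

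ITGB8 ran from 4.25 over a median of 5.03 to 5.91 on shCtrl arrays and from 4.59 over 5.84 to 6.87 on hairpin arrays, and was apart in the shAHR1 comparisons and not in the shAHR2 comparisons. It rose by 0.73 ± 0.20 on average (limma adjusted p = 0.041), and the shCtrl side holds the IL4I1 group with the mean of 4.41 near the bottom of the scale. The call held with 8 of the 18 arrays left out singly; it was lost without control-vector shCtrl 2 or 3, shAHR1 1 or any shAHR2 array, and without IL4I1 shCtrl 1 or 2 or shAHR1 1 or 3, with 0.67 to 0.75 and adjusted p up to 0.11. LAMB1 ran from 8.66 over 8.89 to 9.20 on shCtrl arrays and from 8.86 over 9.26 to 9.54 on hairpin arrays, apart in 3 of the 4 comparisons. LAMB1 rose by 0.34 ± 0.09 on average (adjusted p = 0.027); without array 1 or 2 of either shCtrl group the adjusted p was 0.058 to 0.077 with a change of 0.32 to 0.35.

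ITGA2 was called in no hairpin comparison, and its average hairpin change of 0.01 (95% confidence interval −0.28 to 0.29) joins changes of opposite sign. With shAHR1 these were −0.80 ± 0.22 without IL4I1 (limma adjusted p = 0.14, arrays apart) and −0.33 ± 0.22 with it (0.60, overlapping). With shAHR2 they were 0.26 ± 0.22 without IL4I1 (0.75, arrays apart) and 0.90 ± 0.22 with it (0.058, arrays apart), and the last passed with the replicate block (0.033), the mean-dependent robust prior (0.024), dim genes left out (0.038) and median-centred arrays (0.049). LAMA2 (0.42 ± 0.13, limma adjusted p = 0.072), LAMC1 (0.22 ± 0.08, 0.17), LAMA4 (0.23 ± 0.11, 0.27), LAMA1 (−0.32 ± 0.14, 0.23) and ITGAV (−0.23 ± 0.09, 0.15) did not pass. LAMA4 in IL4I1 cells was at 7.53, 7.74 and 8.04 with shCtrl and at 8.67, 8.34 and 8.55 with shAHR2, apart from each other, with a change of 0.75 ± 0.18 at the edge of the threshold (adjusted p = 0.05, not called).

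AHR binds DNA with its partner ARNT at a core of GCGTG, and the region before the start of the genes called under the hairpins was searched for these letters on both strands. RefSeq promoters (GRCh38.p14) were in the table for 3 of the 6 such genes, ITGA4, ITGB8 and LAMB1. The 250 bases before the start are printed 5′ to 3′ on the gene's strand, with each GCGTG, or CACGC where it lies on the other strand, in capitals. ITGA4 is at chr2:181457136-181457385 on the plus strand, ITGB8 at chr7:20330650-20330899 on the plus strand and LAMB1 at chr7:108003162-108003411 on the minus strand.
ITGA4: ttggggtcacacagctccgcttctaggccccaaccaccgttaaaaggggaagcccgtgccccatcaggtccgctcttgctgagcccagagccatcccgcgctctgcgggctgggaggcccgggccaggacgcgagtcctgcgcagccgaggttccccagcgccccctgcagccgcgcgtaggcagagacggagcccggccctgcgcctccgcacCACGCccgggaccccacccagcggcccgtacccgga
ITGB8: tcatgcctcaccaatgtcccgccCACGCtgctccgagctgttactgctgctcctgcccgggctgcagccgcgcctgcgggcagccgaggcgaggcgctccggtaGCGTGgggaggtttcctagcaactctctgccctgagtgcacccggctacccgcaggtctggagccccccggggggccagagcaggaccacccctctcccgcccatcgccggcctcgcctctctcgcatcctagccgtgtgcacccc
LAMB1: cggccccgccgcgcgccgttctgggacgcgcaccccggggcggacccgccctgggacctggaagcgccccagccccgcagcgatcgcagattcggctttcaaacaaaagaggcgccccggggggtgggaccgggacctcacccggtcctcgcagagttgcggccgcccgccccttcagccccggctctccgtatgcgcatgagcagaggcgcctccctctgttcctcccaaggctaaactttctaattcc
ITGA4 held 1 copy, 36 bases before the start, ITGB8 held 2, at 227 and 146 bases, and LAMB1 held 0. Over the 25 members with a promoter in the table, 8 of 32 windows held the core (25%), beside 32.2% of all 35116 windows. A match is a run of letters, and binding was not measured.

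ITGAX, ITGB3, ITGB8 and LAMB1 were called in both averages, and each went the opposite way with the hairpins and with IL4I1. ITGAX changed by 1.03 with IL4I1 and by −0.85 with the hairpins, ITGB3 by 0.38 and −0.78, ITGB8 by −0.93 and 0.73, and LAMB1 by −0.26 and 0.34. The averages are built from the same 18 arrays, so these values are set side by side and not as separate evidence. The share of all genes called in both averages, and of those going opposite ways, is not given here. Whether the pattern is particular to these members can therefore not be read from these values. ITGA2, ITGA3, ITGA7, LAMA3 and LAMA5 were called with IL4I1 alone and ITGA4 and ITGB4 with the hairpins alone; whether these changes differ was not tested.

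**Figure D4:**
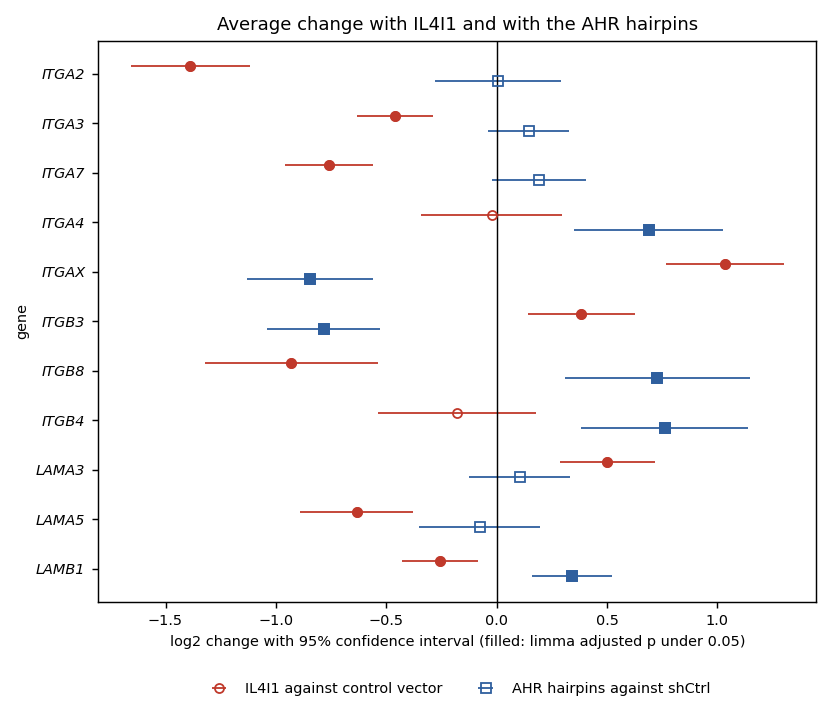
Average log2 change with its 95% confidence interval (x axis) of the 11 members called in at least 1 average (y axis); circles are IL4I1 against control vector, squares AHR hairpins against shCtrl, filled where the limma adjusted p is under 0.05. Filled circles and squares lie on opposite sides of 0 for ITGAX, ITGB3, ITGB8 and LAMB1.

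The third question was whether the IL4I1 change depends on the hairpin, given by the interaction terms. None of the 36 members passed (limma, 0 of 36 for both hairpins together, shAHR1 and shAHR2, beside 0.0193%, 0% and 0.0129% of all genes). At an unadjusted p under 0.05 limma had 4, 6 and 2 members (11.1%, 16.7% and 5.56%, beside 5.38%, 5.8% and 4.31% of all genes). No other setting called a member. The nearest was ITGAM, whose IL4I1 change was 1.66 ± 0.42 log2 units lower with shAHR1 than with shCtrl (adjusted p = 0.40, interval −2.55 to −0.77). For ITGA8, the difference was −2.08 ± 0.62 (0.65) at levels near the bottom of the scale. The median standard error over all genes was 0.22 for IL4I1 in shCtrl cells, a comparison of 3 arrays with 3. An interaction joins more groups and has a larger error, which limits the size of difference that could pass. For ITGA2B the standard error was 0.32 for the interaction with shAHR1, beside 0.23 for IL4I1 in shCtrl cells.

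The hairpins against AHR were also set against each other, since a difference between them is not shared by both. No member passed in either vector (limma, beside 0% of all genes). At an unadjusted p under 0.05 limma had 6 members each (16.7%, beside 6.89% of all genes without and 7.28% with IL4I1). Arrays were apart for 8 members each (22.2%, beside 12.9% and 14.5% of all genes). ITGA2 was higher with shAHR2 than with shAHR1 by 1.07 ± 0.22 (adjusted p = 0.14) without and by 1.24 ± 0.22 (0.057) with IL4I1, and the arrays did not overlap. In IL4I1 cells this difference passed with the mean-dependent robust prior (0.012), with dim genes left out (0.027) and with each array centred on its median. ITGA11 was higher by 1.03 and 0.85 (0.41 and 0.52) and LAMA4 by 0.48 and 0.70 (0.62 and 0.22), while ITGB5 changed by −0.44 and −0.78 (0.65 and 0.19).

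The design text names a further comparison, IL4I1 cells with an AHR hairpin against shCtrl cells without IL4I1. With shAHR1, ITGA2 and ITGA11 were lower, 2 of 36 members or 5.56%, a share close to the 4.53% of all genes. With shAHR2, LAMA5 and ITGA2 were lower and LAMA3 was higher, 3 of 36 beside 3.35%. ITGA2 fell by 2.09 ± 0.22 with shAHR1 (limma adjusted p = 0.00011), a call that held without any 1 array, and by 0.85 ± 0.22 with shAHR2 (0.044), which held for 7 of the 18 arrays left out singly and was lost without any array of either group compared, array 1 or 2 of control-vector shAHR1, array 2 or 3 of control-vector shAHR2 or array 1 of IL4I1 shAHR1 (adjusted p up to 0.15). LAMA5 fell by 1.08 ± 0.21 with shAHR2 (0.0092), also without any 1 array.

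ITGA11 was at 7.14, 6.48 and 7.14 in control-vector shCtrl cells, at 6.24, 5.91 and 5.61 with shAHR1 and at 7.59, 6.29 and 7.00 with shAHR2. With IL4I1 it was at 6.22, 6.21 and 6.64 with shCtrl, at 6.10, 5.38 and 5.84 with shAHR1 and at 6.88, 6.32 and 6.66 with shAHR2. The shAHR1 groups of either vector lay lowest. ITGA11 fell by 1.15 ± 0.30 in IL4I1 shAHR1 cells against the baseline (limma adjusted p = 0.039), a call lost without baseline array 1 or 3, IL4I1 shAHR1 array 2 or 3 or IL4I1 shAHR2 array 3 (adjusted p up to 0.17). LAMA3 rose by 0.72 ± 0.18 with shAHR2 against the baseline (0.033), lost without baseline array 2 or 3 or any IL4I1 shAHR2 array (0.57 to 0.79, adjusted p up to 0.15).

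Genes that work with these receptors were described from 3 lists. Of 45 measured integrin adaptors and focal adhesion genes, 3 rose and 10 fell with IL4I1 on average (median −0.15), beside 5.36% and 7.21% of all genes called higher and lower, and 2 rose and 0 fell with the AHR hairpins (4.44%, no more than the 5.36% of all genes). TLN1, the talin that couples beta subunits to actin, fell by 0.52 ± 0.08 (limma adjusted p = 4.4e-04), FLNA, an actin crosslinker, by 0.51 ± 0.09 (0.0016), TNS3, a tensin, by 0.71 ± 0.09 (1.2e-04) and ACTN4, an alpha-actinin, by 0.48 ± 0.09 (0.0017) with IL4I1. ACTN4 rose by 0.71 ± 0.09 with the hairpins (3e-04).

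Of 34 measured matrix ligands of integrins, other than laminins and collagens, 3 rose and 4 fell with IL4I1 (20.6%, beside 12.6% of all genes) and 3 rose and 1 fell with the hairpins (11.8%, beside 5.36%), with medians of 0.05 and 0.14. CCN2, a secreted matricellular protein, fell by 1.37 ± 0.15 with IL4I1 (limma adjusted p = 3e-05) and rose by 0.91 ± 0.16 with the hairpins (0.0025). TGFBI, an RGD protein of the matrix, rose by 0.32 ± 0.10 with IL4I1 (0.043) and fell by 0.47 ± 0.10 with the hairpins (0.013). FBLN5, an elastic fibre protein, rose by 0.71 ± 0.14 (0.0023) and EDIL3, a ligand of alphaV, fell by 0.43 ± 0.11 (0.015) with IL4I1.

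Of 34 measured laminin partners, receptors and relatives, 4 rose and 1 fell with IL4I1 (14.7%, close to the 12.6% of all genes) and 2 rose and 2 fell with the hairpins (11.8%, beside 5.36%), with medians of 0.08 and −0.10. NTN4, a netrin that binds into laminin networks, rose by 0.88 ± 0.16 with IL4I1 (limma adjusted p = 0.0014) and fell by 0.67 ± 0.17 with the hairpins (0.028). NTNG2, a membrane-bound netrin, rose by 0.50 ± 0.09 with IL4I1 (0.0014). With the hairpins SGCE, a sarcoglycan, rose by 0.45 ± 0.09 (0.005) and SMOC1, a basement membrane protein, fell by 0.89 ± 0.19 (0.010).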

How the data were processed

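The deposited log2 values per probe set were made by the authors with RMA in the oligo package, per the submitters' processing notes (versions not given in the sources used here). The method equalises the arrays' distributions, so a common shift of all genes is removed. Of 18913 probe sets, 15598 had 1 symbol, 870 had several and 2445 were unlisted; the latter 2 kinds were not named. Old symbols were updated through RefSeq (1173 cases), and the brightest probe set per gene was kept (66 genes had several, 0 of them members), giving 15529 genes. These were fitted with limma 3.58.1 (lmFit, eBayes) in R 4.3.3 over all 18 arrays as 6 group means; errors are standard errors, and a Benjamini-Hochberg adjusted p under 0.05 over all genes made a call, in 16 comparisons. "Groups apart" means that no array of 1 group reached the range of the other; an exact permutation test of 3 against 3 cannot go below p = 0.1 and was not used. The script was tested on simulated data. The members, role classes and lists were chosen with earlier results of these data known. Every member is named; of the other lists, up to 4 genes with the lowest adjusted p are. Alternatives were a replicate block, the compared groups only, a mean-dependent robust prior, dim genes left out (mean under the lower quartile), median-centred arrays, the mean of probe sets, and each array left out.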

Additional observations from a re-analysis of the deposited data

How the results depend on the processing

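Of 171 values of the 32 called pairs of a member and a comparison, 154 kept their call under the alternatives that used all 18 arrays or the compared groups; 15 of the 17 lost calls came from fitting the compared groups alone, which leaves 6 arrays and few degrees of freedom, and 2 from the mean-dependent robust prior. None changed sign. Both averages stayed within 1.5 times their count of called members under every alternative that kept all arrays. Taking the mean of probe sets moved no count, but 0 members had several probe sets, so it left their values as they were. That setting therefore tests nothing for the members, although its values are among the 171 and the 154.

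With the compared groups only, the counts of called members were 1 for IL4I1 in shCtrl cells (from 6), 0 for IL4I1 in shAHR1 cells and in shAHR2 cells (from 2 each), 0 for shAHR1 without IL4I1 and for shAHR2 with IL4I1 (from 1 each), and 1 and 0 for IL4I1 with shAHR1 and with shAHR2 against the baseline (from 2 and 3). With the mean-dependent robust prior they were 4 for IL4I1 in shAHR2 cells, 1 for shAHR2 without, 3 for shAHR1 with and 4 for shAHR2 with IL4I1, 1 for shAHR2 against shAHR1 with IL4I1 and 5 for IL4I1 with shAHR2 against the baseline. With dim genes left out they were 4 for IL4I1 in shAHR2 cells, 2 for shAHR1 with and 3 for shAHR2 with IL4I1 and 1 for shAHR2 against shAHR1 with IL4I1; with median-centred arrays, 3 for shAHR2 with IL4I1 and 1 for shAHR2 against shAHR1 with IL4I1. The share of all genes called under each setting is not given in this section. Whether calls over all genes rose alike can therefore not be read from these counts, and the cause of the gains was not tested.

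With 1 array left out, the counts ranged from 2 to 7 for IL4I1 in shCtrl cells (2 without control-vector shCtrl array 2 or IL4I1 shCtrl array 1), 0 to 3 in shAHR1 cells, 0 to 3 in shAHR2 cells and 7 to 10 for the IL4I1 average. They ranged from 0 to 1 for shAHR1 and for shAHR2 without IL4I1, 0 to 2 for shAHR1 with and 0 to 3 for shAHR2 with IL4I1, and 2 to 7 for the hairpin average (3 without control-vector shCtrl array 2 or IL4I1 shCtrl array 1, 2 without IL4I1 shCtrl array 2). Against the baseline they ranged from 1 to 3 for either hairpin, and they were 0 throughout for the hairpins against each other and for the interactions. Of 576 such values of called members, 450 kept their call.

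The replicate numbers were checked for pairing. Deviations of same-numbered arrays correlated at −0.042 to 0.28 for number 1 (median 0.074). For numbers 2 and 3 they correlated at −0.13 to 0.18 (median 0.023) and −0.061 to 0.32 (median 0.0091). Arrays of different numbers and groups correlated at −0.3 to 0.18 (median −0.023). Of 18 arrays, 13 were closest to their own number, which is a hint from the data and not from the design. With the replicate block the counts were 1 for shAHR2 without IL4I1, 3 for shAHR1 with IL4I1 and 3 for shAHR2 with IL4I1, and 7 for IL4I1 in shCtrl cells, 10 for the IL4I1 average and 7 for the hairpin average; the interactions stayed at 0.

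The 9 members under the lower quartile of gene means lie low on the scale of the arrays; detection calls per probe set were not used here, so how much of their signal is background was not measured.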
